A study of Mus musculus with 12 samples.

Results

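The passage response of Itpr2 knock-out (KO) fibroblasts was set against that of wild-type (WT) fibroblasts: the change from early to late passage in KO cells, minus the same change in WT cells. All 12 arrays of the series entered this comparison, in 4 groups of 3, and 19507 genes or unnamed transcripts were tested. The cells were primary fibroblasts (MEFs) cultured out of E12.5 mouse embryos, taken after 3 passages (early) or 5 passages (late), and 100 ng of total RNA per array were labelled with Cy3. The groups were WT early, WT late, KO early and KO late, and the labels name no allele, strain or treatment beyond the Itpr2 genotype. The cultures of each genotype came from 3 independent mice per the series' design text, which does not say whether an early and a late array with the same number share an embryo.

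The product of Itpr2 is an inositol trisphosphate receptor (type 2), a channel that lets calcium leave the endoplasmic reticulum when a cell is stimulated and that can pass calcium on to mitochondria. Fibroblasts taken from an embryo divide a limited number of times in culture and then enter senescence, a lasting arrest that mouse cells reach sooner in the oxygen of room air. On the way they can lose embryonic growth programmes, change the matrix they make and secrete inflammatory factors. The comparison asked which of these passage-linked changes were common to both genotypes, which ran in opposite directions, and which were seen in only 1 of them.

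Levels are log2 intensities relative to the 75th percentile of each array, differences are log2 differences between group means with the standard error (SE) of the fit, and a gene was called when the limma p-value, adjusted over all 19507 genes, was under 0.05. The share of the 39429 probes with a signal well over background ran from 59.19% to 67.49% per array. The arrays lay on 3 slides that each held 1 array of each group, so that the comparison could also be read within each slide. Of the fibroblast markers 16 of 16 were measured, and their mean level was between 3.06 and 4.29 on the arrays. The 1 measured Itpr2 probe was not lower in KO, with means of 1.08 in WT early, 1.73 in WT late, 1.48 in KO early and 1.90 in KO late arrays; whether it lies inside the deletion is unknown here, so it does not check the genotype. Xist, which coats the inactive X chromosome, was above background on WT early array 1, WT late array 1 and KO late arrays 1 and 2, but on 0 KO early arrays. Ddx3y, a gene of the Y chromosome, read between 0.88 and 0.94 on the 3 KO early arrays and 1.08 on KO late array 3, was not above background on KO late array 2 (-7.43), and was lower but above background on KO late array 1, which thus carried both transcripts. KO late arrays 1 and 2 thus differ from the KO early arrays in sex-linked transcripts; the labels do not say whether other embryos or pools were used, and in the KO late minus early value passage and such a change of source cannot be told apart. Counts over all genes and the medians of some lists are given with and without them. The spread was also unequal, the median SD of a gene being 0.214 in WT early, 0.16 in WT late, 0.141 in KO early and 0.0836 in KO late arrays, while the fit used 1 spread pooled over the groups.

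More transcripts were called with passage in KO than in WT cells, and nearly all that were called in both moved the same way. In WT cells 2033 of 19507 genes (10.4%) were called, 1181 higher (6.05%) and 852 lower (4.37%) at late passage. In KO cells 3688 (18.9%) were called, 1995 higher (10.2%) and 1693 lower (8.68%). That order turned without KO early array 1, with 2258 genes called in WT and 1983 in KO. Without KO late arrays 1 and 2 the counts were 847 in WT and 158 in KO, but that fit has 1 KO late array against 3 in each WT group, so these counts cannot be set against each other. The shared response, called in both genotypes in 1 direction, held 1156 genes (5.93%), 773 higher (3.96%) and 383 lower (1.96%). These were 56.9% of the genes called in WT and 31.3% of those called in KO. The opposite response held 13 genes (0.0666%). Across all genes the responses of WT and KO had a Pearson correlation of 0.593, a description over 19507 genes that are not independent and whose arrays shared slides.

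The difference between the responses was itself called for 17 genes (0.0871%), 13 with a lower (0.0666%) and 4 with a higher response in KO (0.0205%), and 2721 genes had an unadjusted p under 0.05. Among the 17 genes, 4 were called in both genotypes in opposite directions, 2 were called in both in 1 direction, 7 were called in KO but not in WT (0.0359% of all genes), and 4 were called in WT but not in KO (0.0205%). A further 2512 genes were called in KO and not in WT without a call of the difference, and 2111 of them had the same sign in WT. Likewise 860 genes were called in WT alone without a call of the difference, and 670 had the same sign in KO. All 17 differences had 1 sign on all 3 slides, as did 7999 of all 19507 genes (41%).

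The count of 17 depended on single arrays. It was 0 without KO early array 2 or without KO late array 1 (with 1999 and 1870 genes at an unadjusted p under 0.05), 1 without KO late array 2, and 9 without KO early array 1 or KO late array 3. It was 32 without WT early array 1 or WT late array 2, 45 without WT late array 1, and 211 without KO early array 3. Without KO late arrays 1 and 2, 0 genes were called by limma for the difference (1181 at an unadjusted p under 0.05, smallest adjusted p = 0.266), 106 were shared, and all 17 genes kept their sign. With the slide as a block, 4 differences were called, 3 of them among the 17. Quantile normalization turned the split to 8 higher and 5 lower, and a normexp background correction gave 29 higher and 17 lower.

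**Figure D1:**
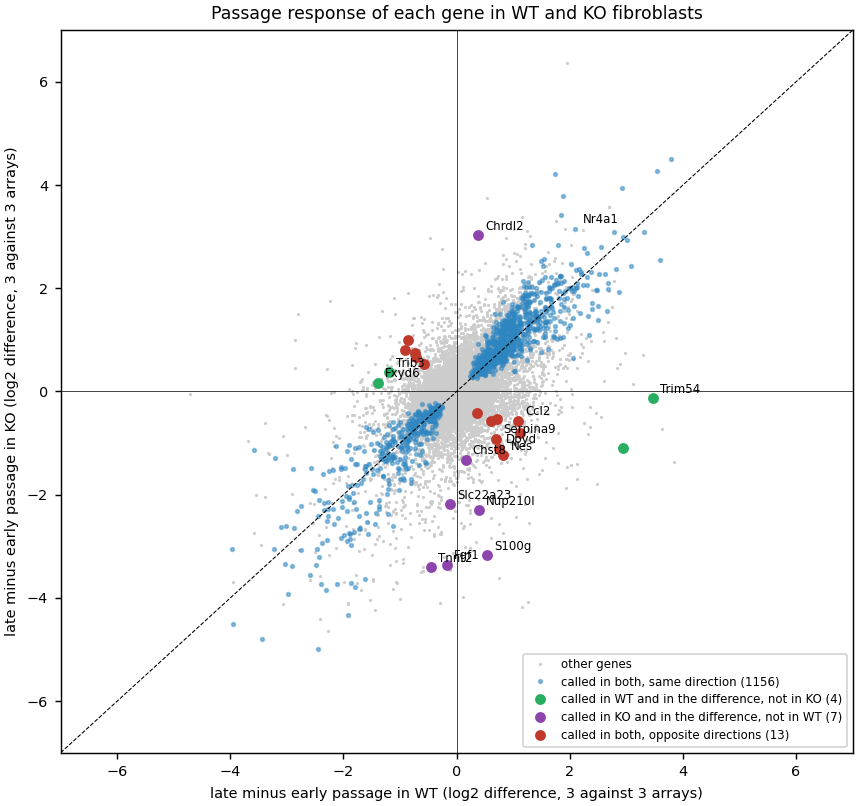
Each point is 1 gene, with the late minus early difference in WT on the horizontal axis and in KO on the vertical axis, both on the log2 scale. Shared genes (blue, 1156) lie along the dashed line of equal response, opposite genes (red, 13) in the upper left and lower right, and genes called in 1 genotype and in the difference near an axis.

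Immediate-early transcription factors, which cells switch on within minutes of a growth or stress signal, mostly rose in both genotypes. Of 25 measured members, 14 were called higher in WT and 17 in KO, 13 of them in both. In WT 0 were called lower, and in KO 2 were (Klf4 and Klf10, at -0.98 and -0.75). Over all genes 6.05% were called higher and 4.37% lower in WT, and 10.2% and 8.68% in KO. The median response was 0.79 in WT and 0.82 in KO, against -0.011 and -0.039 over all genes. The mean level of the list was between -0.155 and -0.0567 on the 6 early arrays and between 0.661 and 0.991 on the 6 late arrays. Early and late arrays did not overlap in either genotype, while WT and KO overlapped at late passage. Without KO late arrays 1 and 2, which leaves 1 KO late array, the KO median was 0.68.

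Nr4a1, an orphan nuclear receptor of this class, was the only member of the list whose rise was called different between genotypes. It read 1.38, 1.25 and 1.35 on the WT early arrays and 1.25, 1.33 and 1.40 on the KO early arrays. At late passage it read 3.48, 3.38 and 3.41 in WT and 4.50, 4.60 and 4.33 in KO. The early groups overlapped, and every KO late array lay above every WT late array. The rise was 2.10 ± 0.088 in WT (SE, n = 3 per group, adjusted p = 5.72e-06) and 3.15 ± 0.088 in KO (adjusted p = 9.44e-08). The difference of 1.05 ± 0.13 had a limma adjusted p of 0.018, with 1.14, 1.14 and 0.88 on slides 1, 2 and 3, the last being the slide with 0 Xist-carrying arrays. Without KO late arrays 1 and 2 the difference was 0.91 and its adjusted p 0.408.

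Egr4, a zinc finger factor of the early growth response family, was also shared. It read -6.34, -7.54 and -6.68 in WT early arrays, where it was not well above background, and -2.80, -2.77 and -3.61 in WT late arrays. In KO it read -6.54, -6.15 and -6.12 early and -1.75, -1.60 and -1.97 late. Late arrays were all above early ones. The rise was at least 9.50-fold in WT (adjusted p = 0.000483) and 4.50 on the log2 scale in KO (adjusted p = 9.54e-05, above background on 1 of 3 KO early arrays), and the difference was not called (adjusted p = 0.492). Of the factors picked for naming after their values were seen, Fos rose by 2.02 in WT and 2.48 in KO, Egr2 by 2.25 and 2.77, and Egr1 by 1.63 and 1.95, with adjusted p-values for the differences of 0.583, 0.489 and 0.63.

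Immediate-early promoters are known for cyclic AMP response elements, the binding sites of CREB, whose half-site reads TGACG, or CGTCA on the other strand. The 250 bases before the RefSeq start are shown for Nr4a1 and Egr4, both described above, to let this feature be seen; both were picked after their values were known. They lie at chr15:101266596-101266845 on the + strand and chr6:85513590-85513839 on the - strand of GRCm38.p6, and capitals mark each half-site on either strand.
Nr4a1: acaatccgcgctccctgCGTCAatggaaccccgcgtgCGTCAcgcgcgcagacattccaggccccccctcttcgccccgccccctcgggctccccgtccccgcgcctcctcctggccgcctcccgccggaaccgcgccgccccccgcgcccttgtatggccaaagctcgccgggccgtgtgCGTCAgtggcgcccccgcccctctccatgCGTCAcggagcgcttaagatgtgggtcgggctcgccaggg
Egr4: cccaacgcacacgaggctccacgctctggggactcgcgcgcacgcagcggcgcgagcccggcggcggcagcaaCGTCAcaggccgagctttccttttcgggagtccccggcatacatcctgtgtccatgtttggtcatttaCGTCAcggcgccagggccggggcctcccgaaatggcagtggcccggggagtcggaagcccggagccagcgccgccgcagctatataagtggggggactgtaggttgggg
The Nr4a1 window holds 4 half-sites and the Egr4 window 2. Of all 32851 such windows, 17.8% hold at least 1 half-site, 3.90% at least 2 and 0.137% at least 4. Among the 13 shared immediate-early genes, 10 have a window, and 6 of these hold at least 1 half-site in their best window. A gene can have more than 1 window, so this count per gene cannot be set against the 17.8% of single windows. A match of letters is a description and no measure of binding.

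Feedback inhibitors of MAP kinase signalling, which the same signals induce, were divided. Dusp2, a nuclear MAP kinase phosphatase, was shared, with a rise of 3.6 ± 0.57 in WT and 2.56 ± 0.57 in KO, and Dusp5 rose by 1.64 and 2.00. Dusp6, a cytoplasmic ERK phosphatase, rose by 1.03 ± 0.13 in WT (adjusted p = 0.00213) and read 0.22 ± 0.13 in KO (adjusted p = 0.25). Dusp4 read 0.91 ± 0.29 in WT (adjusted p = 0.0686) and fell by 1.20 in KO (adjusted p = 0.0166). Their differences between genotypes missed the threshold, at -0.81 (adjusted p = 0.13) and -2.12 (adjusted p = 0.0929). Over the 16 measured members the median was 0.35 in WT and -0.025 in KO, 4 differences were positive, and 0 were called.

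EGF family and senescence secretome genes were called higher more often than lower in both genotypes, and Ccl2 went in opposite directions. Calls over all genes also leaned higher, with 6.05% higher and 4.37% lower in WT, and 10.2% and 8.68% in KO. Of 9 measured EGF family genes, 4 were called higher in WT and 5 in KO, 3 in both, among them Hbegf and Btc, both ligands of the EGF receptor family. Hbegf rose by 1.97 in WT and 1.22 in KO. Btc, above background on 0 early arrays of either genotype, rose at least 2.36-fold in WT and 3.26-fold in KO. Of 32 measured factors of the senescence secretome, 10 were called higher in WT and 8 in KO, 5 in both, with medians of 0.54 and 0.37; 2 were called lower in WT and 3 in KO. Il1b, Il6, Lif and Ptgs2, named after their values were seen, rose by 2.68, 1.17, 1.65 and 2.62 in WT and by 1.98, 1.86, 1.36 and 2.28 in KO. Macrophage markers had a median response of 0.85 in WT (15 of 17 positive, 1 called higher) and -0.057 in KO (8 of 17 positive, 0 called), and their part in these values was not tested.

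Igf2 and several Hox genes fell in both genotypes, while lists of growth genes were mixed. Of 25 imprinted growth genes 6 were called lower and 0 higher in WT, against 3 lower and 4 higher in KO. Of 18 insulin-like growth factor genes 4 were lower and 1 higher in WT, against 6 lower and 3 higher in KO. The shares over all genes were 4.37% lower and 6.05% higher in WT, and 8.68% and 10.2% in KO. Igf2, the imprinted insulin-like growth factor of fetal tissue, read 2.71, 3.13 and 3.34 in WT early arrays and -1.48, -1.19 and -0.078 in WT late arrays. In KO it read 1.85, 2.21 and 2.51 early and -0.87, -0.80 and -0.91 late. Early and late arrays were far apart in both genotypes, and the late arrays of the 2 genotypes overlapped. It fell by 3.97 ± 0.32 in WT (adjusted p = 0.000483) and by 3.05 ± 0.32 in KO (adjusted p = 0.000559), and the difference of 0.93 ± 0.46 was not called (adjusted p = 0.396). Its antisense transcript Igf2os fell by 3.03 and 3.35; the strand read by each probe was not checked.

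Wt1, a zinc finger factor of mesothelial and kidney precursors, fell by 3.44 in WT and at least 9.55-fold in KO, being above background on 1 WT late array and 0 KO late arrays. Agtr1b, an angiotensin receptor, fell by 3.95 in WT, with 1 WT late array above background, and at least 7.64-fold in KO. Actc1, cardiac actin, fell at least 7.38-fold in WT and at least 5.43-fold in KO. These genes of different tissues shared the direction and had adjusted p-values of 0.434, 0.761 and 0.569 for the difference.

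Hox genes record position along the body and limb axes. Among 32 measured, 6 were called lower in WT and 14 in KO, against 4.37% and 8.68% of all genes, and the 6 were shared. The median response was -0.66 in WT and -1.05 in KO, and 0 differences were called. On single arrays the mean level was between -1.66 and -1.25 in WT early, -2.43 and -1.92 in WT late, -1.30 and -1.16 in KO early, and -2.56 and -2.09 in KO late arrays. Late arrays were below early ones, and the late groups overlapped. Among posterior members, picked after their values were seen, Hoxa11 fell by 2.0 in WT and 2.78 in KO, Hoxa10 by 1.29 and 1.64, and Hoxc9 by 1.23 and 1.98. The median difference was 0.42 on slide 1, -0.43 on slide 2 and -0.54 on slide 3. Once KO late arrays 1 and 2 were left out, which leaves 1 KO late array, the KO median was -1.12 and the median difference -0.16.

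Of 52 other mesenchymal identity factors, 10 were called lower in WT and 15 in KO, 8 in both, while 9 were called higher in KO and 0 in WT. Over all genes 4.37% were called lower and 6.05% higher in WT, and 8.68% and 10.2% in KO. Ebf2, a factor of fat and stromal precursors, fell by 1.87 in WT and 3.72 in KO (difference -1.85 ± 0.44, adjusted p = 0.155). Meox1, a factor of somites, fell by 2.26 ± 0.22 in WT (adjusted p = 0.00094) and read -0.56 ± 0.22 in KO (adjusted p = 0.102). Its difference of 1.70 ± 0.31 missed the threshold (adjusted p = 0.0855) and was 2.32, 2.21 and 0.58 on slides 1, 2 and 3.

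**Figure D2:**
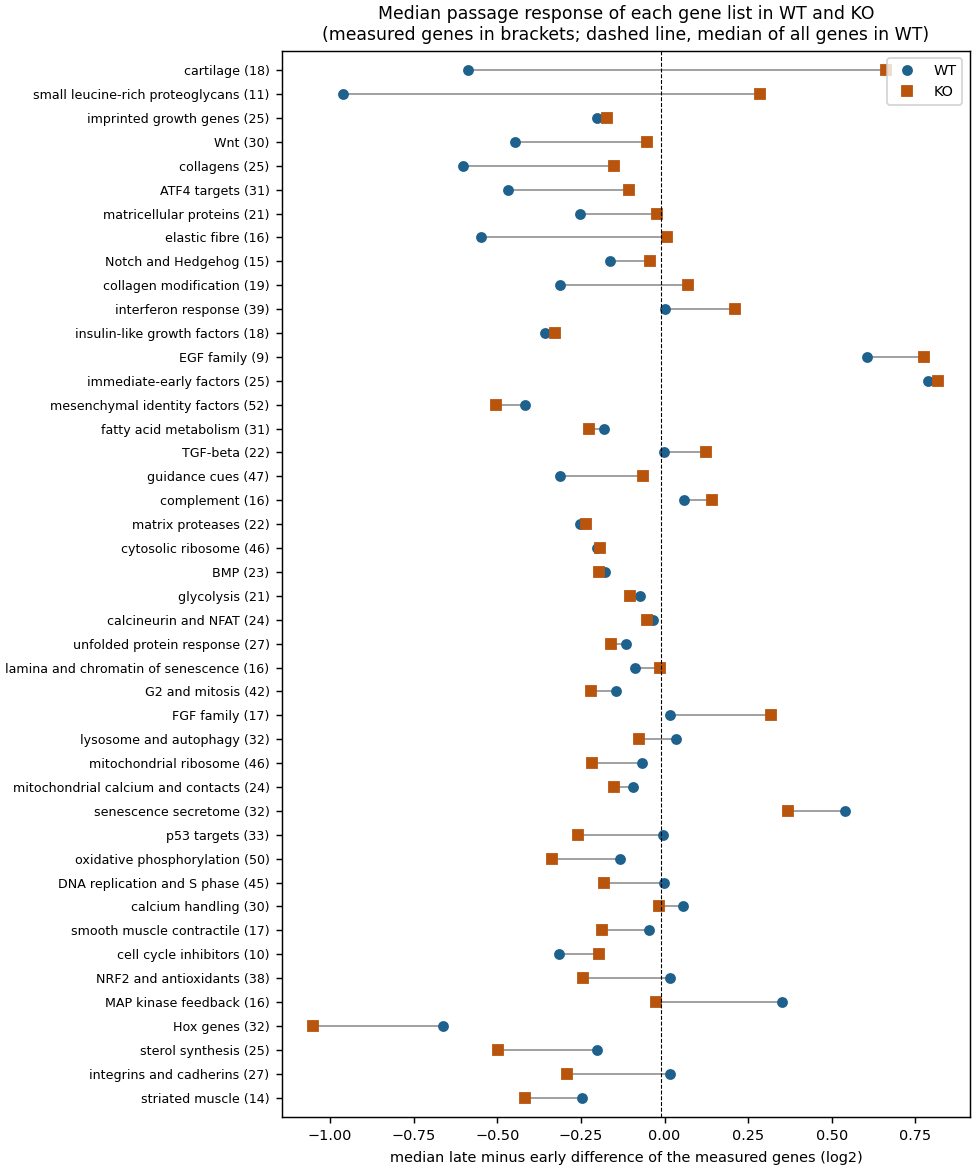
Median late minus early log2 difference of each gene list in WT (circles) and KO (squares), with the number of measured genes in brackets and lists ordered by their median difference between genotypes. Immediate-early factors lie at 0.79 and 0.82, Hox genes at -0.66 and -1.05, and those of cartilage at -0.59 and 0.66.

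A small set of genes went in opposite directions. The 13 opposite genes were 8 that rose in WT and fell in KO, and 5 that fell in WT and rose in KO. For 4 of the first kind, namely Nes, Dpyd, Ccl2 and Serpina9, the difference was called as well. For the other 9, whose adjusted p for the difference was 0.0855 (0.112 for Tent5a), it was not. Under the further demand of a log2 response of at least 1 in each genotype, 0 genes were opposite.

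Ccl2, a chemokine that draws monocytes and a usual member of the senescence secretome, read 1.78, 2.25 and 2.13 in WT early arrays and 3.1, 3.18 and 3.11 in WT late arrays. The KO arrays gave 2.44, 2.36 and 2.25 early and 1.75, 1.66 and 1.94 late. Every WT late array was above every WT early array, every KO late array was below every KO early array, and the 2 late groups were apart. Ccl2 rose by 1.08 ± 0.12 in WT (adjusted p = 0.00169) and fell by 0.57 ± 0.12 in KO (adjusted p = 0.0122). The difference was -1.65 ± 0.18 (limma adjusted p = 0.0125), and was -2.01, -1.63 and -1.30 on slides 1, 2 and 3.

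Macrophages, which embryo cultures can carry, also make chemokines. The median response of macrophage markers was 0.85 in WT and -0.057 in KO, and in their mean level early and late arrays overlapped in both genotypes. Of 18 macrophage markers 17 were measured, 1 had a positive difference, the median difference was -1.06, and 0 were called. Their mean level was between 0.961 and 2.13 in WT early, 1.73 and 2.53 in WT late, 1.09 and 1.56 in KO early and 0.55 and 1.73 in KO late arrays; Cd163 was above background on 0 arrays. The median difference of the markers was 0.53, -0.98 and -2.65 on slides 1, 2 and 3. In bulk RNA fewer cells of a type and less RNA per cell cannot be told apart, and the part of the macrophage signal in the Ccl2 result was not tested.

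Nes encodes nestin, an intermediate filament protein of dividing progenitor cells. It read 1.46, 1.34 and 1.67 in WT early and 2.45, 2.21 and 2.29 in WT late arrays, against 1.69, 1.22 and 0.80 in KO early and 0.012, -0.11 and 0.10 in KO late arrays. The early groups overlapped and the late groups did not. It rose by 0.83 ± 0.19 in WT and fell by 1.23 ± 0.19 in KO, a difference of -2.06 ± 0.27 (limma adjusted p = 0.0247). Of 12 neural markers, Nes among them, 8 were measured and only Nes was called for the difference; Dcx, Gfap and Elavl3 were above background on 1 array each. Their mean level was between -0.609 and -0.503 in WT early, -0.84 and -0.61 in WT late, -0.689 and -0.502 in KO early and -1.19 and -1.1 in KO late arrays, and its part in the Nes result was not tested.

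Dpyd, the first enzyme of pyrimidine breakdown, rose by 0.75 ± 0.15 in WT and fell by 1.11 ± 0.15 in KO. Its 3 KO late arrays, at -4.23, -4.23 and -4.20, were below the other 9, of which the lowest was -3.74. The difference was -1.86 ± 0.21 (limma adjusted p = 0.0134). Serpina9, a serine protease inhibitor, followed the same course at 0.70 ± 0.13 and -0.92 ± 0.13, with a difference of -1.62 ± 0.18 (limma adjusted p = 0.0134). For Ccl2, Nes, Dpyd and Serpina9 the differences without KO late arrays 1 and 2 kept their direction, at -1.49 for Ccl2, -1.96 for Nes, -1.84 for Dpyd and -1.56 for Serpina9, with adjusted p-values of 0.408, 0.413, 0.408 and 0.408.

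The difference was not called for the 9 other opposite genes. Rhbdl2, a rhomboid protease of membranes, read 1.13 in WT and -0.80 in KO, and Ap1s2, a subunit of a clathrin adaptor, 0.61 and -0.57. The unnamed probe A_55_P2131677 read 0.71 and -0.54, and 1810053B23Rik 0.35 and -0.41. In the reverse direction were Erg, an ETS factor of endothelium and cartilage, at -0.87 and 0.99, Fibin at -0.92 and 0.81, Boc, a Hedgehog co-receptor, at -0.74 and 0.74, Klf15 at -0.72 and 0.66, and Tent5a, a poly(A) polymerase, at -0.58 and 0.53.

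**Figure D3:**
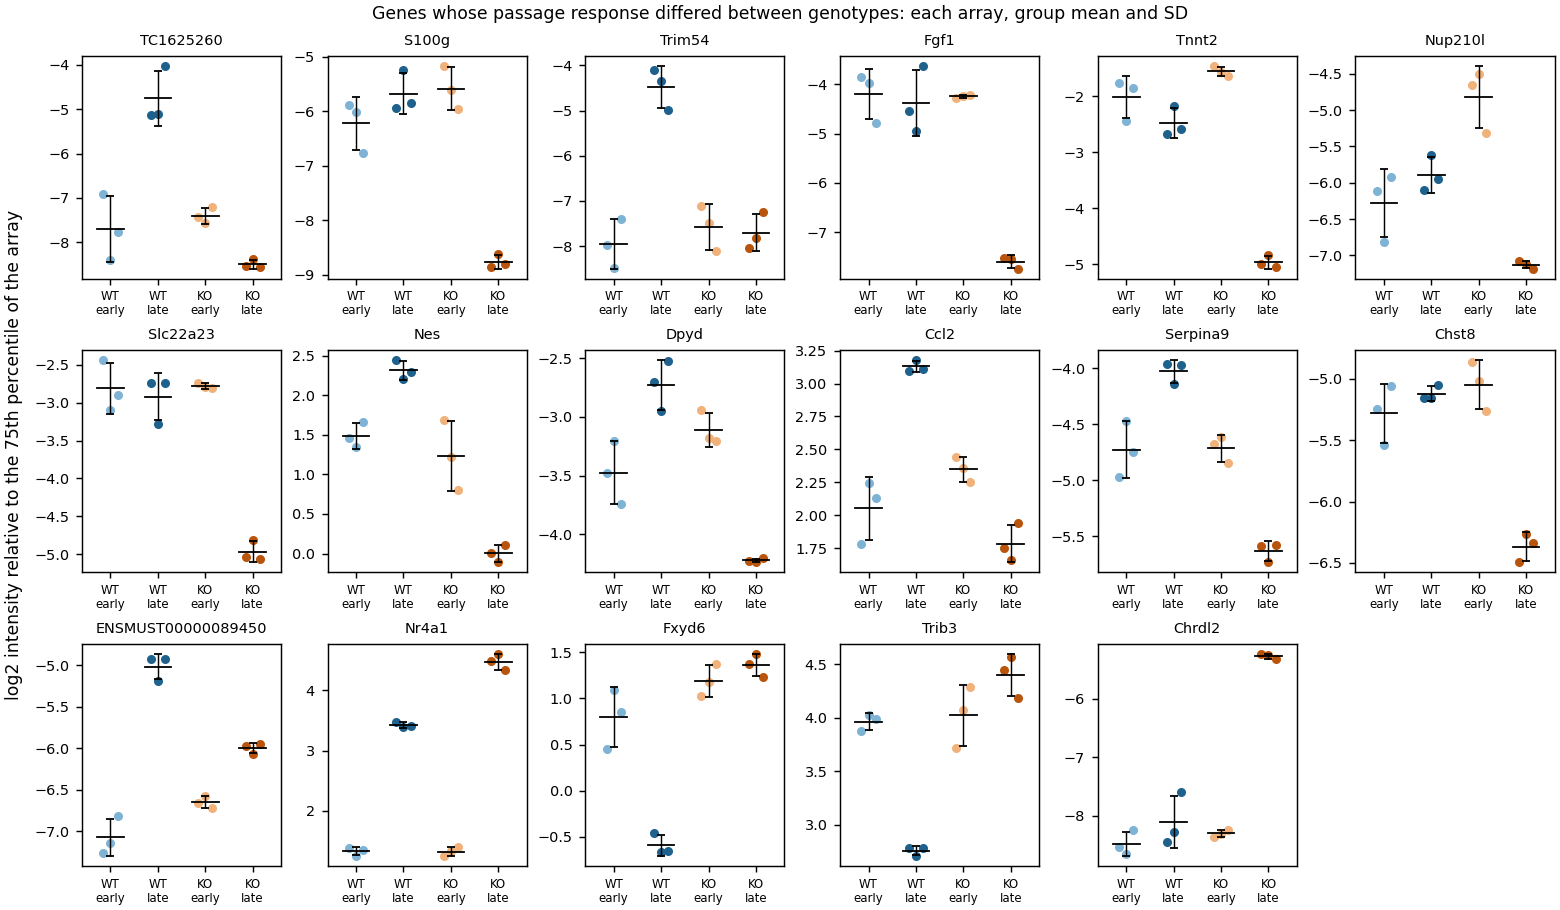
Level of the 17 genes called for the difference on each of the 12 arrays, as log2 intensity relative to the 75th percentile, with the group mean (line) and SD (bar) over 3 arrays. In the panels of Tnnt2, Fgf1, S100g and Slc22a23 the KO late arrays stand below the other 9, and in those of Nr4a1 and Chrdl2 above them.

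In 7 genes the change was called in KO and in the difference but not in WT, and 6 of these fell. Tnnt2, the troponin T of heart muscle, read -1.77, -2.45 and -1.85 in WT early and -2.69, -2.18 and -2.58 in WT late arrays. The KO arrays gave -1.47, -1.57 and -1.64 early and -5.00, -4.84 and -5.05 late. The WT groups overlapped, and the KO late arrays were below all others. Its response was -0.46 ± 0.18 in WT (adjusted p = 0.134) and it fell by 3.40 ± 0.18 in KO (adjusted p = 3.44e-05). The difference of -2.94 ± 0.26 had the smallest limma adjusted p of all genes, 0.00828, and it was called in 19 of 22 alternative settings. The other genes called for the difference held in fewer settings. Nes, Slc22a23 and Trib3 were called in 11 of 22, Fgf1 in 7 of 20 and Trim54 in 5 of 20.

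Of 14 measured striated muscle genes, whose median difference was -0.43, Tnnt2 was the only one called for the difference. In WT 1 was called higher and 2 lower, against 6.05% and 4.37% of all genes. In KO 0 were called higher and 1 lower, against 10.2% and 8.68% of all genes. Slow skeletal troponin I, Tnni1, named after its value was seen, rose by 1.05 in WT and read -0.44 in KO, with an adjusted p for the difference of 0.0559. The skeletal muscle markers Myod1, Myog, Myf5 and Ckm were above background on 0 arrays, Pax7 on 2, Myh3 on 4 and Ttn on 1. The 3 measured markers of that list had a mean level between -1.45 and -1.14 in WT early, -1.88 and -1.19 in WT late, -1.49 and -1.39 in KO early and -1.84 and -1.47 in KO late arrays.

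Fgf1, a fibroblast growth factor without a secretion signal, read -3.85, -3.97 and -4.78 in WT early and -4.55, -4.94 and -3.63 in WT late arrays. In KO it read -4.27, -4.24 and -4.22 early and -7.52, -7.54 and -7.74 late, not well above background. The KO fall was at least 4.67-fold (adjusted p = 0.00033), the WT response was -0.17 ± 0.31 (adjusted p = 0.755), and the difference had a limma adjusted p of 0.0342. Of 17 measured FGF ligands and receptors it was the only one called for the difference. Fgf5 fell in both, by 2.76 and 3.07, and Fgf7 rose in both, by 0.87 and 0.78, both named after their values were seen.

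S100g, the calcium-binding protein calbindin-D9k, also dropped below background in KO late arrays. It read -5.18, -5.61 and -5.96 in KO early and -8.85, -8.61 and -8.81 in KO late arrays, a fall of at least 1.84-fold (adjusted p = 0.000229). In WT it read -5.89, -6.02 and -6.77 early and -5.95, -5.25 and -5.84 late, with groups that overlapped. The limma adjusted p of the difference was 0.0125.

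Slc22a23, an organic ion transporter family member, stayed above background on all arrays. It read -0.11 ± 0.19 in WT and fell by 2.19 ± 0.19 in KO, a difference of -2.08 ± 0.26 (limma adjusted p = 0.0243), and its 3 KO late arrays were below the other 9. Nup210l, a nuclear pore protein of the testis, fell at least 3.12-fold in KO (difference adjusted p = 0.0261), and Chst8, a sulfotransferase of hormone sugar chains, at least 2.50-fold (difference adjusted p = 0.0247). Both were above background on 0 KO late arrays, and their measured WT responses of 0.39 and 0.16 were not called; Nup210l was also above background on 0 WT early arrays.

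Chrdl2, a chordin-like binder of bone morphogenetic proteins (BMPs), was the 1 gene of this kind that rose. It was above background only on the KO late arrays, where it read -5.24, -5.26 and -5.32. The other 9 arrays lay between -8.65 and -7.60, below background. The KO rise was at least 1.85-fold (limma adjusted p = 5.02e-05, and 0.0125 for the difference). It entered the test only through the group where it is high, and these p-values rest on 9 arrays below background. Of 23 measured BMP genes, Chrdl2 was the only one called for the difference. In KO 8 were called lower and in WT 3, against 8.68% and 4.37% of all genes. The antagonist Grem1, named after its value was seen, read 0.62 in WT and fell by 1.28 in KO (difference adjusted p = 0.153).

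In 4 genes the change was called in WT and in the difference but not in KO. Trib3, a pseudokinase induced by ATF4 when amino acids are short or the endoplasmic reticulum is stressed, read 3.87, 4.02 and 3.99 in WT early and 2.79, 2.71 and 2.78 in WT late arrays. In KO it read 3.72, 4.07 and 4.28 early and 4.45, 4.57 and 4.18 late. The WT late arrays were below all others, and the KO groups overlapped. It fell by 1.20 ± 0.14 in WT (adjusted p = 0.0019) and read 0.38 ± 0.14 in KO (adjusted p = 0.0955), a difference of 1.58 ± 0.20 (limma adjusted p = 0.0244) that was 1.82, 1.82 and 1.1 on slides 1, 2 and 3.

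Most other ATF4 targets had a difference of the same sign. Of 31 measured, 12 were called lower in WT and 5 in KO, against 4.37% and 8.68% of all genes, and 3 were lower in both. A positive difference was seen in 26, though Trib3 was the only one called for it. The median response was -0.47 in WT and -0.11 in KO, and the median difference of 0.39 was 0.31, 0.36 and 0.35 on slides 1, 2 and 3. Mean levels were 2.18, 2.09 and 2.14 on the WT late arrays and between 2.51 and 2.82 on the other 9. The amino acid transporters Slc7a5 and Slc7a3 and the stress factor Atf5, named after their values were seen, fell by 1.07, 2.17 and 0.60 in WT and read -0.18, -0.71 and -0.10 in KO, with adjusted p-values for the difference of 0.232, 0.153 and 0.193. Without KO late arrays 1 and 2, which leaves 1 KO late array, the KO median was -0.17 and the median difference 0.35.

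Fxyd6, a regulator of the sodium pump, fell by 1.39 ± 0.16 in WT and read 0.17 ± 0.16 in KO, a difference of 1.56 ± 0.22 (limma adjusted p = 0.0389). Its WT late arrays, at -0.46, -0.66 and -0.66, were below the other 9, which began at 0.45. Trim54, a muscle RING finger protein of microtubules and sarcomeres, was above background only on the WT late arrays, at -4.09, -4.36 and -4.99. Its rise was at least 3.54-fold in WT (adjusted p = 0.00094, difference adjusted p = 0.0342). The unnamed transcript TC1625260 was likewise above background only on the WT late arrays, at least 2.93-fold higher (difference adjusted p = 0.0244). Both entered the test only through the group where they are high, and their p-values rest on 9 arrays below background. ENSMUST00000089450, also without a symbol, rose in both genotypes, at least 2.44-fold in WT and 1.11-fold in KO, with a difference called at an adjusted p of 0.0216.

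Among the 44 lists of functions, cartilage had the largest median difference between genotypes, although 0 of its genes passed the test of the difference. Of 18 measured cartilage genes, 4 were called lower in WT and 0 in KO, and 4 were called higher in KO and 0 in WT. Over all genes 4.37% were called lower and 6.05% higher in WT, and 8.68% and 10.2% in KO. A positive difference was seen in 17 of the cartilage genes. The median response was -0.59 in WT and 0.66 in KO, and the median difference of 1.29 was 2.07, 0.85 and 0.83 on slides 1, 2 and 3. On single arrays the list's mean level was -1.87, -2.80 and -2.72 in WT early, -3.32, -2.87 and -3.21 in WT late, -3.02, -2.30 and -1.93 in KO early and -1.41, -1.49 and -1.28 in KO late arrays. The KO late arrays were above all others, and the early groups overlapped. With KO late arrays 1 and 2 left out, which leaves 1 KO late array, the KO median was 0.77 and the median difference 1.40. Of the 11 cartilage markers, Col9a3 was above background on 0 arrays and Matn1 on 1.

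Sox9, the master factor of cartilage, read -0.05, -0.58 and -0.31 in WT early and -0.89, -0.65 and -0.64 in WT late arrays. In KO it read -0.35, -0.10 and 0.11 early and 0.70, 0.64 and 0.72 late. The response was -0.41 ± 0.15 in WT (adjusted p = 0.109), it rose by 0.80 ± 0.15 in KO (adjusted p = 0.00674), and the difference was 1.21 ± 0.21 (adjusted p = 0.0855). Hapln1, the link protein that ties aggrecan to hyaluronan, read -1.32 ± 0.40 in WT and rose by 1.55 ± 0.40 in KO (difference adjusted p = 0.103). Cnmd, chondromodulin, read 1.94 ± 1.19 in WT (adjusted p = 0.31) and rose by 6.36 ± 1.19 in KO (adjusted p = 0.00642, difference adjusted p = 0.3). It was above background on 1 WT early, 2 WT late and 2 of 3 KO early arrays, and its difference ranged from 0.51 on slide 2 to 10.57 on slide 1. Acan, aggrecan, read 0.87 ± 0.95 in WT and 2.57 ± 0.95 in KO, called in neither (difference adjusted p = 0.598).

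Small leucine-rich proteoglycans, which bind collagen fibrils and set their spacing, had 6 of 11 members called lower in WT and 0 in KO. Over all genes 4.37% were called lower in WT and 8.68% in KO. All 11 measured members had a positive difference. The WT late arrays, at -0.735, -0.184 and -0.398, were below the other 9, which lay between 0.201 and 1.02. Lum, lumican, fell by 2.85 ± 0.48 in WT (adjusted p = 0.0078) and read 0.45 ± 0.48 in KO (adjusted p = 0.55), and its difference of 3.30 ± 0.68 was not called (adjusted p = 0.112). Epyc, epiphycan, which also belongs to the cartilage list, fell at least 2.89-fold in WT and read 1.5 ± 0.57 in KO (difference adjusted p = 0.092).

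Collagens and elastic fibre genes had median responses nearer to 0 in KO. Of 25 measured collagen genes, 11 were called lower in WT, against 4.37% of all genes. In KO 2 were called lower, which is near the 8.68% of all genes. The collagen medians were -0.60 in WT and -0.15 in KO. Their median difference was 0.44 (0.37, 0.52 and 0.40 on slides 1, 2 and 3). Col14a1, a collagen of fibril surfaces, fell by 1.14 in WT and read 0.68 in KO (difference adjusted p = 0.151), and Col6a2, of beaded microfibrils, fell by 1.5 and read 0.12 (difference adjusted p = 0.13). Of 16 elastic fibre genes, 5 were called lower in WT and 3 in KO, against 4.37% and 8.68% of all genes. Fbn2, the fibrillin of embryonic microfibrils, fell by 1.66 ± 0.25 in WT and read 0.089 ± 0.25 in KO (difference 1.74 ± 0.36, adjusted p = 0.112), while elastin, Eln, fell by 2.45 and 2.41. The medians of the cartilage, proteoglycan, collagen and ATF4 lists kept their sign in every alternative run, for WT, KO and the difference, and were 1.40, 0.83, 0.38 and 0.35 for the difference without KO late arrays 1 and 2.

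**Figure D4:**
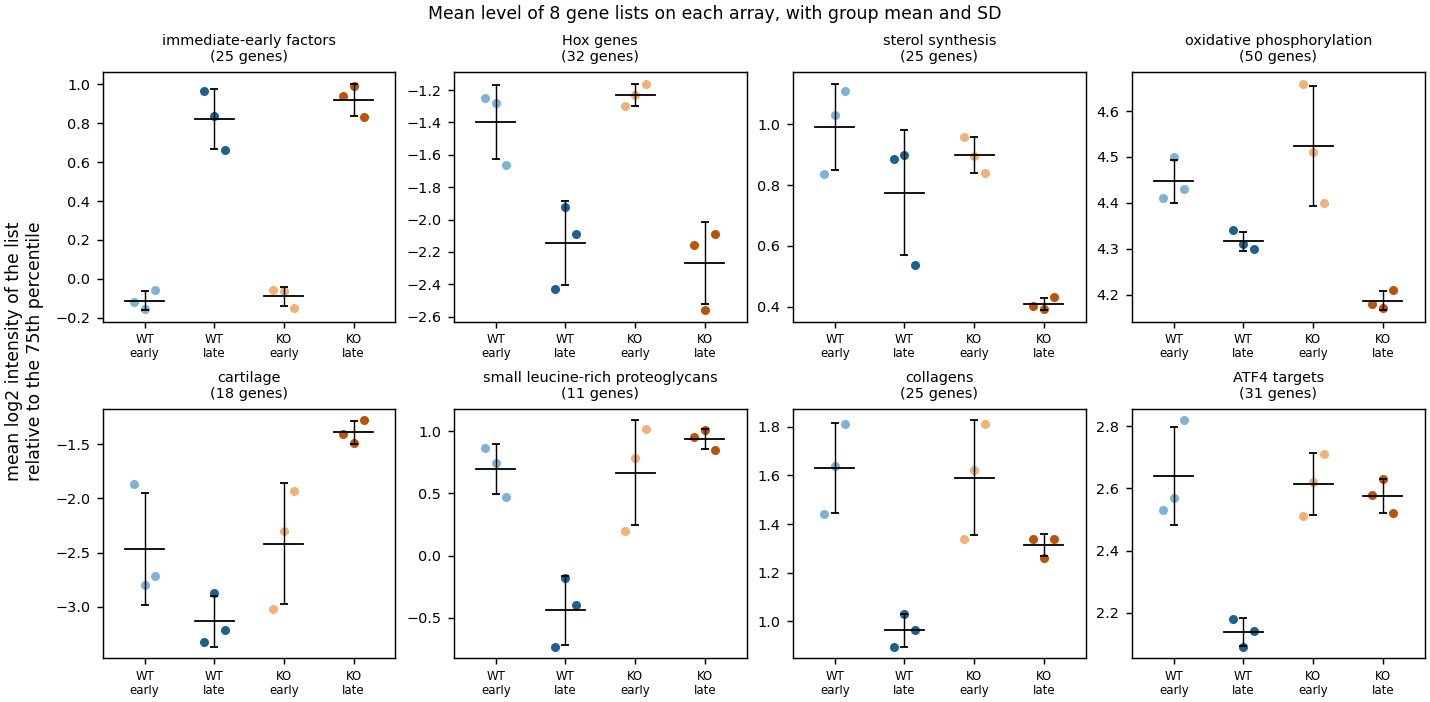
Mean log2 intensity of 8 gene lists on each array, relative to the 75th percentile, with the group mean (line) and SD (bar) over 3 arrays. Immediate-early factors are high on all 6 late arrays, at 0.661 or more, the cartilage list is highest on the 3 KO late arrays, and the ATF4 list is lowest on the 3 WT late arrays.

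Many respiratory chain genes, which serve oxidative phosphorylation in mitochondria, fell with passage in KO. Of 50 measured subunits, 28 were called lower in KO and 0 in WT, against 8.68% and 4.37% of all genes. The difference between genotypes was called for 0 of them. The median response was -0.13 in WT and -0.34 in KO, 2 of 50 differences were positive, and the median difference was -0.41, -0.11 and -0.049 on slides 1, 2 and 3. The list's mean level was between 4.41 and 4.50 in WT early, 4.30 and 4.34 in WT late, 4.40 and 4.66 in KO early and 4.17 and 4.21 in KO late arrays. The early groups overlapped, and the KO late arrays were below all others. Cox5a, of cytochrome oxidase, read 0.041 ± 0.10 in WT and fell by 0.44 ± 0.10 in KO (difference adjusted p = 0.21), and Ndufa4 read -0.027 and fell by 0.60 (difference adjusted p = 0.265). Without KO late arrays 1 and 2, which leaves 1 KO late array, the KO median was -0.31.

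Sterol synthesis had falls in both genotypes, with 5 of 25 genes called lower in WT and 12 in KO, the 5 being shared. Over all genes 4.37% were called lower in WT and 8.68% in KO. Tm7sf2, a sterol reductase, fell by 0.61 ± 0.094 in WT and by 1.15 ± 0.094 in KO, and the difference of -0.54 ± 0.13 (adjusted p = 0.159) was -0.53, -0.54 and -0.57 on the 3 slides. The median difference of the list was -0.68, -0.34 and 0.15 on slides 1, 2 and 3, and so changed sign between slides.

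Checkpoint and antioxidant genes had 0 called differences between genotypes. Over all genes, 8.68% were called lower and 10.2% higher in KO, and 4.37% and 6.05% in WT. Of 33 measured p53 targets, 10 were called lower and 5 higher in KO, and 2 lower and 4 higher in WT, with medians of -0.26 and -0.0055. Cdkn1a, the p21 inhibitor of cyclin-dependent kinases, fell by 0.76 in KO and read -0.44 in WT (difference adjusted p = 0.503). Cdkn2b fell by 1.26 in KO and read -0.54 in WT (difference adjusted p = 0.28). Of 38 antioxidant genes under NRF2, 8 were called lower and 1 higher in KO, and 1 lower and 1 higher in WT, and Nqo1, a quinone reductase, fell by 1.71 ± 0.33 in KO and read -0.21 ± 0.33 in WT (difference adjusted p = 0.232). Of 45 replication genes 5 were called lower and 1 higher in KO and 0 in WT, with medians of -0.18 and -0.0029; the share lower in KO is near the 8.68% of all genes.

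Calcium handling, the process in which Itpr2 takes part, had 0 called differences among 30 measured genes. Its median response was 0.056 in WT and -0.017 in KO. Trpc6, a calcium-permeable channel of the plasma membrane, came closest. It read -4.12, -4.80 and -4.61 in WT early and -6.04, -5.87 and -4.63 in WT late arrays, against -4.05, -4.38 and -4.32 in KO early and -8.37, -8.07 and -8.38 in KO late arrays. KO late arrays were below all others and not well above background, a fall of at least 4.65-fold, and the difference had an adjusted p of 0.0553. The related receptors Itpr1 and Itpr3 read -0.20 and 0.15 in WT and 0.23 and -0.42 in KO, with 0 calls in either genotype or in the difference.

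Wnt signalling and the interferon response had positive median differences, 0.46 and 0.24, with 0 genes called for the difference. Of 30 measured Wnt genes 8 were called lower in WT and 4 in KO, 5 were called higher in KO and 0 in WT. Over all genes 4.37% were called lower and 6.05% higher in WT, and 8.68% and 10.2% in KO. Fzd1, a Wnt receptor, read -0.25 ± 0.17 in WT and rose by 1.02 ± 0.17 in KO (difference 1.26 ± 0.23, adjusted p = 0.091). The feedback gene Axin2 fell at least 1.09-fold in WT and read 0.63 in KO (difference adjusted p = 0.163). It was above background on 1 WT early array and 0 WT late arrays. Of 39 interferon response genes 5 were called higher and 0 lower in KO, near the 10.2% of all genes called higher there, and 1 higher and 1 lower in WT, and the median difference was 0.88, 0.48 and -0.11 on slides 1, 2 and 3.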

How the data were processed

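RNA of 12 cultures was hybridised to 1-colour Agilent arrays. The deposited scanner files hold the intensity of each spot after background subtraction by Agilent Feature Extraction, version 11.5.1.1 per the file headers and 10.7.3.1 per the submitters' processing notes, without normalization between arrays. The authors' deposited value table holds log2 values for 22887 probes and served as an alternative. Control spots and outlier spots were left out, repeated spots averaged, and log2 intensities set relative to each array's 75th percentile. A probe was kept if some group had it well over background on each of its 3 arrays (24466, of which 107 had an outlier spot and were left out), and the probe with the highest mean stood for a gene. Of 28290 probes with an accession, 27969 matched RefSeq (GRCm38.p6), and 14577 of the 19507 genes had a symbol.

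Group means were fitted with limma 3.58.1 in R 4.3.3 (8 residual and 2.19 prior degrees of freedom), with Benjamini-Hochberg adjustment, and tested on simulated data. The contrasts were WT passage, KO passage and their difference. P-values set a difference against the spread between the 3 cultures of a group, pooled over the 4 groups and with the limma prior. A group with 0 arrays above background gives a bound ("at least") against the lowest signal above background. Named genes were those with the largest differences or responses in each class and those with the smallest p-values or largest responses in each of 54 lists; others are marked. The members and lists were chosen with earlier results of these data known, and no test over a list was made. Alternatives covered scaling, background, filter, probe rule, slide block, weights, Xist and each array left out.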

Additional observations from a re-analysis of the deposited data

Results flagged for a closer look

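The difference between the passage responses of WT and KO was called for 17 genes, with limma adjusted p-values from 0.00828 to 0.0389. Of the 9 measured above background in every group, the response was lower in KO, as a log2 difference, for Ccl2 (-1.65), Dpyd (-1.86), Nes (-2.06), Serpina9 (-1.62), Slc22a23 (-2.08) and Tnnt2 (-2.94), and higher for Fxyd6 (1.56), Nr4a1 (1.05) and Trib3 (1.58). The other 8 had at least 1 group below background on all 3 arrays, so that their fitted values have no exact size and no order. These were lower in KO for Chst8 (-1.48), ENSMUST00000089450 (-1.40), Fgf1 (-3.19), Nup210l (-2.69), S100g (-3.71), TC1625260 (-4.03) and Trim54 (-3.59), and higher for Chrdl2 (2.66). Among them, Chrdl2, Trim54 and TC1625260 entered the test only through the group where they are high. Their p-values rest on arrays below background and are no independent support.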

How the results depend on the processing

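All 17 differences kept their sign in every alternative in which they were tested, but their number rested on the arrays used. Leaving out 1 array gave 0 to 211 differences, 1178 to 2443 calls in WT, 1776 to 4704 in KO, 603 to 1162 shared genes, 3 to 46 opposite, 0 to 40 limited to WT and 0 to 119 limited to KO. Counts fell by over 1.5 times without WT early array 2 (WT 1269, shared 766), KO early array 2 (WT 1323, KO 2046, shared 678), WT late array 1 (WT 1178, shared 754), WT late array 2 (WT 1241, shared 724) or KO late array 1 (WT 1239, KO 1776, shared 603), KO late array 2 (KO 2038, shared 749), KO late array 3 (KO 2199, shared 721) and KO early array 1 (KO 1983). Without the pair of KO late arrays with Xist, which leaves 1 array assumed to vary like the other groups, WT had 847 calls, KO 158, shared 106, and the difference, opposite and both limited classes 0. With Xist as a covariate KO had 2179, the difference 9, opposite 7, limited to WT 0 and limited to KO 4.

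The replicate block, which is also the slide, gave 4 differences, 1 limited to WT and 3 limited to KO. Same-numbered WT early and late arrays deviated together (r of 0.279, 0.244 and 0.141), while KO early and late arrays did not (0.0298, 0.0791 and -0.0915). The numbers were not taken as pairs in the main fit. In WT they may mark pairs, since each WT early array was closest to the WT late array of its number, and the main fit does not use this. With 1 variance per group WT had 546 calls, KO 6487, shared 462, opposite 6 and limited to WT 1. Without the filter on dim probes, which raised the genes tested to 31978, WT had 979, KO 2332, the difference 3, shared 558, opposite 4, limited to WT 0 and limited to KO 3. With probes above background on all 12 arrays, or with the authors' value table, the difference had 9 calls and each limited class 2, since 9 of the 17 genes were tested. Normexp background correction, added after the data were seen because the planned signal column could not be used, gave 46 differences, 14 limited to WT and 21 limited to KO; there the KO response of ENSMUST00000089450 was -0.093 and that of Epgn -0.040, and the cause was not tested. Quantile normalization gave 4 limited to KO. A log2 size of at least 1 gave 791 in WT, 1375 in KO, 415 shared and 0 opposite. That correction shrinks differences of dim genes (Serpina9 to -0.43), and signal over background limits the size of falls and rises given as bounds.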
